A study of Mus musculus with 6 samples.

Results

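The piRNA pathway genes described here are *Piwil2*, *Piwil4*, *Ddx4*, *Mov10l1*, *Tdrd9*, *Tdrd1*, *Tdrkh*, *Asz1*, *Mael* and *Fkbp6*, 10 of the 19489 genes in an mRNA-seq table of mouse embryonic stem cells (ESCs). They were matched by gene symbol, from a list chosen with earlier results of these data known. The table holds 3 libraries of *Dppa3* OE ESCs, labelled Dppa3 over expression, and 3 libraries of Con ESCs, labelled wild type. By the study's methods OE cells received the *Dppa3* coding sequence under the ubiquitous CAG promoter and Con cells the empty vector, and both were selected with puromycin, so the controls were transfected cells and not untouched ones. Libraries 1 and 2 of each group carry no further condition. The third library of each group is labelled D7, which no source used here explains, and the pair OE-D7 and Con-D7 was kept apart. The counts of this pair are headed Average Read Count, those of libraries 1 and 2 Read Count. What was averaged is not given. All cells grew in serum and LIF. The ESC line of these libraries (D3 or J1) and whether they came from stable clones or from transient transfection are not given in the sources used here, and the strain label differs for each library, running from 129S2/SvPas to 129S7/SvPas in sample order.

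The piRNA pathway protects the germ line from transposons. PIWI proteins carry short RNAs, the piRNAs, that match transposon transcripts, and the complexes cut these transcripts in the cytoplasm or direct DNA methylation to the transposons in the nucleus of fetal male germ cells. The work is done in granules beside mitochondria (nuage), where Tudor domain proteins hold the PIWI proteins by their methylated arginines. Most of the genes are silent in somatic tissues, and DNA methylation of their promoters is a part of that silencing in several of them. Dppa3, also called Stella or PGC7, is a maternal factor that affects DNA methylation, so the 10 genes were compared between OE and Con ESCs.

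The members fill different places in the pathway. *Piwil2* (Mili) encodes the cytoplasmic PIWI protein that slices transposon RNA, and *Piwil4* (Miwi2) the nuclear PIWI protein. *Ddx4* (mouse vasa homologue) and *Mov10l1* encode RNA helicases, the second of which feeds precursor transcripts into piRNA production. *Tdrd9* encodes a Tudor protein with a helicase domain that works with Piwil4. *Tdrd1* encodes a Tudor scaffold of Piwil2, *Tdrkh* a Tudor protein anchored on mitochondria, and *Asz1* (Gasz) a germ cell protein that also sits on the mitochondrial surface. *Mael* encodes maelstrom, a component of germ granules, and *Fkbp6* a partner of the Hsp90 chaperone in loading piRNAs. In the RefSeq annotation of GRCm38.p6 the genes lie on 10 different chromosomes, so none neighbours another. All are annotated as protein coding.

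Promoter sequences are shown for the 3 members that passed the comparison of OE with Con described below, *Fkbp6*, *Asz1* and *Mael*, and for *Ddx4*, whose level was nearly the same in both groups. RefSeq promoters (GRCm38.p6) were at hand for 9 of the 10 members, all but *Piwil2*, with 13 annotated starts in all. Each run below is the 250 bases before an annotated start on the gene's strand, 5′ to 3′, and capitals mark the letters CACGTG (an E-box of the kind bound by Max and Mga dimers) or TCCCGC and its reverse complement GCGGGA (an E2F type site). Max, Mga and E2f6 belong to a Polycomb complex known to silence germ line genes in ESCs.
Fkbp6, chr5:135350045-135350294, minus strand: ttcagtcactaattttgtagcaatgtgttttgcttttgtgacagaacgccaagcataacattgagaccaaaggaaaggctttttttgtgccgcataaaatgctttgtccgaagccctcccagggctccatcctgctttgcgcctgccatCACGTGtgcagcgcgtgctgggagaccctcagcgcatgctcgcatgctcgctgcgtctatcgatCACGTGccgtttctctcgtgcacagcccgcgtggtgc
Asz1, chr6:18109062-18109311, minus strand: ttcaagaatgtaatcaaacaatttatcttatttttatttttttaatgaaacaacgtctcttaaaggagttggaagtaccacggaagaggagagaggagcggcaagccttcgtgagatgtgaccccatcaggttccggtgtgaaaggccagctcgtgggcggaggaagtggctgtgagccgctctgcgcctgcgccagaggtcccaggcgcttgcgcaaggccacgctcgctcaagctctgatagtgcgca
Mael, chr1:166238745-166238994, minus strand: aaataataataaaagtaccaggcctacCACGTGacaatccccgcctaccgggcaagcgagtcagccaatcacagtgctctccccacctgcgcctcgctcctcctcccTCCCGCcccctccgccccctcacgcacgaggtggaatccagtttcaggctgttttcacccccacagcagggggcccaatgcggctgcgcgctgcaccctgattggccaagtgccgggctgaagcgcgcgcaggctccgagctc
Ddx4, chr13:112652311-112652560, minus strand: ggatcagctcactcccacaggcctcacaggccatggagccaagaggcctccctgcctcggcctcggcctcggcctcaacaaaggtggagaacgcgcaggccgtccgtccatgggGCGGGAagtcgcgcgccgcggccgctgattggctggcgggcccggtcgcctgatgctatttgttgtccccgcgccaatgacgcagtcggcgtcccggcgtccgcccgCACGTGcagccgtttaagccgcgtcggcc

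The *Fkbp6* run holds CACGTG at 101 and at 37 bases before the start. The *Mael* run holds CACGTG at 223 bases and TCCCGC at 143 bases before the start, the *Ddx4* run holds CACGTG at 29 bases and GCGGGA at 136 bases before it, and the *Asz1* run holds neither. Over windows that also take the 50 bases after the start, CACGTG (a palindrome, so both strands are read at once) was in a promoter of 6 of the 9 members, *Ddx4*, *Fkbp6*, *Mael*, *Mov10l1*, *Tdrd1* and *Tdrd9*, and in 8.1% of the 27018 genes of the same table. TCCCGC on either strand was in a promoter of 2 of the 9, *Ddx4* and *Mael*, and in 22.1% of all genes. These matches are letters in a window and carry no measurement of binding. Of the genes shown that passed in the fit with paired libraries, *Fkbp6* holds CACGTG, *Mael* both sets of letters and *Asz1* neither. *Ddx4*, which did not pass, holds both. A link between these letters and the OE values was not tested.

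CpG content of the same windows differed among the members as well. CpG observed over expected, which is near 1 where CpGs have not been lost, was 0.926 at the *Fkbp6* start shown, 0.783 at *Asz1*, 0.78 at *Mael* and 0.978 at *Ddx4*. It was 0.956 at *Tdrkh*, 0.674 at *Mov10l1*, 0.43 at *Tdrd9*, and at most 0.81 over the 3 starts of *Tdrd1* and 0.543 over the 2 of *Piwil4*. The median over 32841 promoters was 0.384, so all 9 members had at least 1 start above it. *Tdrd9* was only at percentile 53.4, and *Piwil4* and *Tdrd1* also had starts at 0 and 0.216. Taking the highest start favours genes with several, and the share of all genes with such a start was not computed. The table holds no methylation values, and none were used here.

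**Figure D1:**
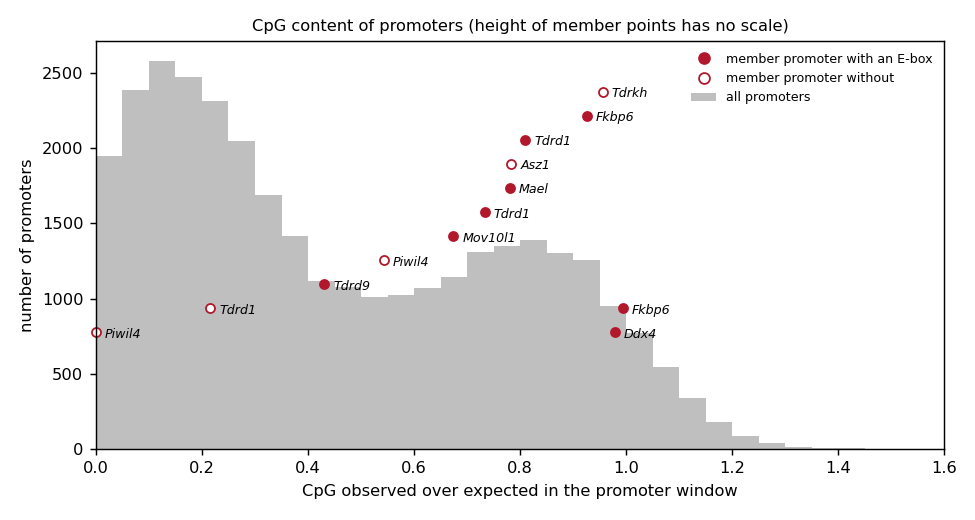
CpG observed over expected in promoter windows, as a histogram of all 32841 RefSeq promoters (x axis, ratio without unit, y axis, number of promoters) with the 13 member promoters as points whose height has no scale. Filled points hold the E-box letters, and member points run from 0 at a second *Piwil4* start to 0.994 at a second *Fkbp6* start.

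Estimated read counts summed to between 17408954 and 18176939 per library, so depth was nearly even. *Dppa3* was at 278.79, 278.82 and 130.96 FPKM in OE-1, OE-2 and OE-D7, against 6.09, 3.89 and 26.22 FPKM in Con-1, Con-2 and Con-D7, so each OE library stood above its Con library, by 45.8-fold, 71.7-fold and 5.00-fold. All 10 markers of mouse ESCs were measured in every library, with *Pou5f1* at 311.64 FPKM or more. Testis cells were looked for because these genes are best known there. Of 9 markers of spermatocytes and spermatids, *Prm1*, *Prm2*, *Tnp1*, *Tnp2* and *Odf1* of spermatids were at 0.3 FPKM or less in all 6 libraries and at 0 in 4 or 5 of them, and *Acrv1* was at 0.16 FPKM or less, while *Sycp3* was at 7.69 to 29.37, *Sycp1* at 3.25 to 5.08 and *Ldhc* at 0.69 to 2.51 FPKM. The 6 markers of Sertoli and Leydig cells summed to 6.94 to 14.35 FPKM, with *Amhr2* at up to 7.77, *Cyp11a1* at 2.55 to 5.26 and *Star* at 1.08 to 2.32 FPKM. The methods speak of independent experiments in general but do not tie these libraries to separate cultures, so p-values measure the spread between these libraries, which may be technical.

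FPKM, fragments per kilobase of transcript and per unit of sequencing depth, lets levels of different genes be compared. By the mean over 6 libraries *Mael* was the highest member at 31.0 FPKM, followed by *Ddx4* at 15.6, *Fkbp6* at 10.5, *Piwil2* at 9.07, *Mov10l1* at 7.66 and *Tdrkh* at 6.14 FPKM. *Asz1* at 2.17, *Piwil4* at 1.67, *Tdrd1* at 0.807 and *Tdrd9* at 0.417 FPKM were low. The order was loose. Each member stood above the next one in 3 to 6 of the 6 libraries, in 6 only for *Tdrkh* over *Asz1*, and in 3 for *Piwil4* over *Tdrd1*. The members also differed in how steady they were, from a 1.44-fold range over the 6 libraries in *Ddx4* to an 8.75-fold range in *Asz1* and an 8.30-fold range in *Piwil4*. The ESCs thus held transcripts of both helicases, of *Piwil2* and of *Mael*, while *Tdrd9* rested on 15 to 52 reads per library and fell short of the minimum for testing, a mean of 0.5 FPKM, which left 9 members tested.

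**Figure D2:**
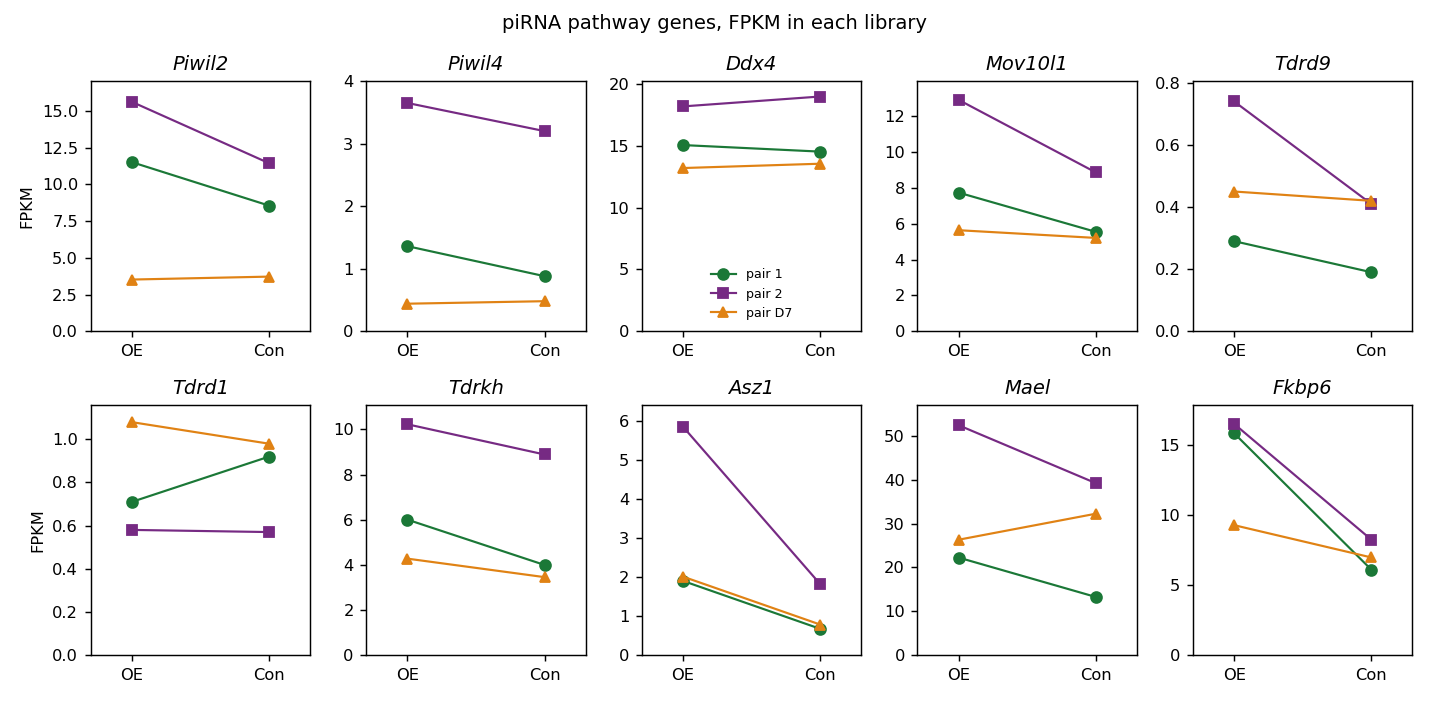
FPKM of each member (y axis, from 0, own scale per gene) in the OE and Con library of each pair (x axis), with lines joining the 2 libraries of a pair. Lines of pair 2 lie highest for 9 of the 10 members in both groups, all but *Tdrd1*, apart from *Tdrd9* in Con, where Con-D7 was higher by 0.01 FPKM.

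The first question was whether *Dppa3* OE changed the members. By FPKM the OE library was above its Con library for 9 of 10 members in pair 1, for 9 of 10 in pair 2 and for 6 of 10 in the D7 pair. Pair 2 includes *Tdrd1* at 0.58 against 0.57 FPKM, whose ratio on counts scaled by library depth was 0.994. The share of all genes above Con in each single pair was not computed. Their median log2 ratio was slightly above 0 in every pair, at 0.05, 0.03 and 0.03. Both in pair 1 and in pair 2 OE was above Con for 35.8% of genes with a mean of 0.5 FPKM or more, and for 7 of the 9 such members. With libraries 1 and 2 as plain replicates, 0 members and 0% of 13494 genes passed as higher in OE at an adjusted p under 0.05 (edgeR quasi-likelihood test, Benjamini-Hochberg), and, before adjustment, 58 genes were higher and 4 lower with p under 0.05. DESeq2 passed 2 genes, neither of them a member. Libraries of the same number were alike in both groups, which is the condition for taking the pairs as a block. With the pairs as a block, *Fkbp6*, *Asz1* and *Mael* rose, 3 of the 9 members, beside 0.763% of all genes, and 0 members fell, beside 0.126% of all genes. DESeq2 with the same block passed *Fkbp6* alone of the members, beside 0.237% of all genes that were higher. The statements on these 3 genes therefore hold for the blocked edgeR fit and, for *Asz1* and *Mael*, for no other fit of all 4 libraries. Leaving out a library without the block leaves the library numbers unequal between OE and Con. Such values mix OE with library number and cannot tell them apart. Without Con-2 *Asz1* had a log2 fold change of 2.69 and *Mael* one of 1.39. Without OE-2 *Asz1* was at 0.68 and *Mael* at -0.22, and without Con-1 *Asz1* was at 1.04 and *Mael* at -0.08.

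*Fkbp6*, the chaperone partner, was the clearest. It was at 15.80, 16.47 and 9.25 FPKM in OE-1, OE-2 and OE-D7, against 6.08, 8.22 and 6.95 FPKM in Con-1, Con-2 and Con-D7. The OE libraries 1 and 2 were alike and both lay above every Con library, and OE-D7 lay above all 3 Con libraries as well. The mean was 16.1 ± 0.474 FPKM in OE and 7.15 ± 1.51 FPKM in Con (SD, n = 2 libraries each). The log2 fold change was 1.17 with a standard error of 0.15 in the blocked fit (adjusted p = 0.000429 from edgeR, 0.0106 from DESeq2). Without the block it was 1.16 with a standard error of 0.24, and its unadjusted p of 0.00643 became an adjusted p of 1 in edgeR.

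*Asz1*, which encodes the mitochondrial germ granule protein, had the largest ratio of the members. It was at 1.90, 5.86 and 2.01 FPKM in OE-1, OE-2 and OE-D7, against 0.67, 1.82 and 0.78 FPKM in Con-1, Con-2 and Con-D7. Both OE libraries 1 and 2 lay above both Con libraries, by only 0.08 FPKM between OE-1 and Con-2, and within every pair OE was higher. The OE over Con ratio was 2.84, 3.22 and 2.58 in pairs 1, 2 and D7. These values rest on 58, 172 and 57 reads in OE-1, OE-2 and OE-D7, against 17, 56 and 24 reads in Con-1, Con-2 and Con-D7. The transcript length implied by counts and FPKM was 1396 bases in Con-1 and 1629 to 1731 bases in the other libraries, so the ratio of pair 1 was 3.45 on counts scaled by library depth. The log2 fold change in the blocked fit was 1.65 with a standard error of 0.26 (adjusted p = 0.00272 from edgeR, 0.282 from DESeq2).

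*Mael*, the most abundant member, was at 22.25, 52.50 and 26.33 FPKM in OE-1, OE-2 and OE-D7, against 13.25, 39.27 and 32.27 FPKM in Con-1, Con-2 and Con-D7. The groups overlapped, since Con-2 lay above OE-1, and the rise is one within the pairs 1 and 2. Its log2 fold change in the blocked fit was 0.53 with a standard error of 0.11 (adjusted p = 0.031 from edgeR, 0.509 from DESeq2), and without the block the standard error was 0.64.

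Of the other members, *Piwil2* came nearest to the threshold. It was at 11.52, 15.63 and 3.52 FPKM in OE-1, OE-2 and OE-D7, against 8.56, 11.45 and 3.72 FPKM in Con-1, Con-2 and Con-D7. Libraries 1 and 2 did not overlap between the groups, with OE-1 above Con-2 by 0.07 FPKM, while the D7 pair was nearly level. Its log2 fold change in the blocked fit was 0.39 with a standard error of 0.09 (adjusted p = 0.0633). *Mov10l1*, the helicase that partners PIWI proteins in piRNA production, was at 7.74, 12.92 and 5.64 FPKM in OE-1, OE-2 and OE-D7, against 5.55, 8.87 and 5.21 FPKM in Con-1, Con-2 and Con-D7. OE was higher in each pair, with a log2 fold change of 0.46 and a standard error of 0.12 (adjusted p = 0.0903). *Tdrkh*, the mitochondrial Tudor protein gene, was at 6.0, 10.23 and 4.27 FPKM in OE-1, OE-2 and OE-D7, against 3.99, 8.89 and 3.45 FPKM in Con-1, Con-2 and Con-D7. OE was again higher in each pair, and with a log2 fold change of 0.38 and a standard error of 0.13 it did not pass (adjusted p = 0.337). Its implied transcript length varied 1.17-fold among libraries.

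The second PIWI gene, *Piwil4*, was at 1.36, 3.65 and 0.44 FPKM in OE-1, OE-2 and OE-D7, against 0.88, 3.20 and 0.48 FPKM in Con-1, Con-2 and Con-D7. The gap between library numbers was far wider than that between OE and Con, and the log2 fold change of 0.30 with a standard error of 0.20 did not pass (adjusted p = 0.778). *Ddx4*, the vasa homologue, was at 15.07, 18.20 and 13.21 FPKM in OE-1, OE-2 and OE-D7, against 14.54, 19.00 and 13.56 FPKM in Con-1, Con-2 and Con-D7. OE was above Con in pair 1 and below it in pairs 2 and D7, and the log2 fold change was -0.055 with a standard error of 0.105 in the blocked fit (adjusted p = 0.948). *Tdrd1*, the Piwil2 scaffold gene, was at 0.71, 0.58 and 1.08 FPKM in OE-1, OE-2 and OE-D7, against 0.92, 0.57 and 0.98 FPKM in Con-1, Con-2 and Con-D7. By FPKM OE was lower only in pair 1, and pair 2 was nearly level. The log2 fold change was -0.27 with a standard error of 0.265 in that fit (adjusted p = 0.894). *Tdrd9*, too low to test, was at 0.29, 0.74 and 0.45 FPKM in OE-1, OE-2 and OE-D7, against 0.19, 0.41 and 0.42 FPKM in Con-1, Con-2 and Con-D7. OE was higher in each pair, by as few as 3 reads in pair 1 (18 reads in OE-1, 15 reads in Con-1).

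Read against all genes, the members leaned to OE in the first pairs. The list was chosen with earlier results of these data known, so the shares describe the members and do not test the pathway. OE was at least 1.5-fold above Con for 5 of 9 tested members in pair 1, where 6.95% of genes were, for 2 of 9 in pair 2, where 4.84% were, and for 1 of 9 in the D7 pair, where 7.08% were. OE was above Con in all 3 pairs for 4 of 9, *Fkbp6*, *Asz1*, *Mov10l1* and *Tdrkh*, and for 21.6% of genes. Both OE libraries 1 and 2 lay above both Con libraries for 3 of 9, *Fkbp6*, *Asz1* and *Piwil2*, and for 10.9% of genes. The median log2 OE over Con ratio of FPKM of the 9 members was 0.59, 0.42 and 0.11 in pairs 1, 2 and D7, beside 0.05, 0.03 and 0.03 over all genes. In the blocked fit 7 of 9 members were above 0, and their median was 0.39 on the log2 scale, beside 0.00 over all genes. Without the block the median was 0.39 as well, and leaving out 1 library moved it between -0.105, with 4 of 9 above 0, without OE-2 and 1.03 without Con-2. In these fits the library numbers were unequal between OE and Con, so the medians mix OE with library number.

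**Figure D3:**
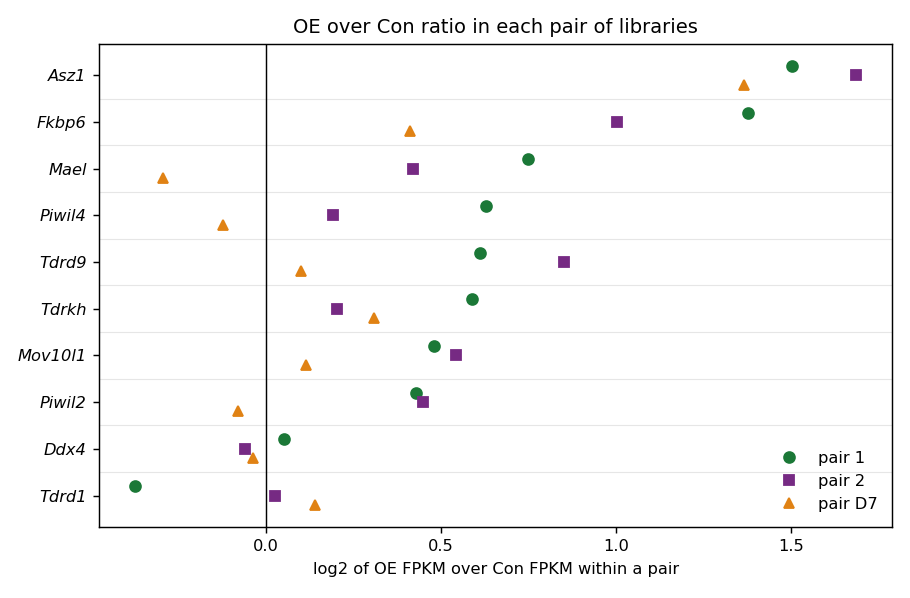
Log2 of OE FPKM over Con FPKM within pair 1, pair 2 and the D7 pair (x axis, 0 means equal) for each member (y axis, ordered by pair 1). *Asz1* lies right of 1 in all 3 pairs, *Fkbp6* in pairs 1 and 2, and *Mael* lies left of 0 in the D7 pair alone.

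Other genes of the pathway did not show calls in this comparison. The list held 25 genes, among them *Piwil1*, further Tudor genes, enzymes that trim and methylate piRNAs, transcription factors of piRNA clusters and partners in nuclear silencing. Of these, 24 were in the table, 22 were tested and 0 passed in either direction, without or with the block. Before adjustment 5 were higher and 1 lower in the blocked edgeR fit with p under 0.05, beside 4.32% and 3.63% of all genes. DESeq2 also passed 0. Their median in the blocked fit was 0.12 on the log2 scale, and 18 of 22 lay above 0, beside 50.3% of all genes. In libraries 1 and 2 they thus leaned to OE as well, though none passed. In the D7 pair 6 of the 22 were higher in OE. Their median log2 ratio of FPKM there was -0.19, beside 0.03 over all genes. Over 6 libraries with the block 11 of 22 lay above 0, beside 49.9% of all genes, so the lean did not extend to all libraries. The most abundant was *Dnmt3l*, the cofactor of de novo DNA methylation in germ cells, at 275.34, 314.57 and 108.25 FPKM in OE-1, OE-2 and OE-D7, against 258.75, 264.65 and 135.45 FPKM in Con-1, Con-2 and Con-D7. It was higher in OE in pairs 1 and 2 and lower in the D7 pair, and its log2 fold change of 0.13 with a standard error of 0.07 did not pass (adjusted p = 0.698 with the block). *Prmt5*, which methylates the arginines that Tudor proteins read, had a log2 fold change of -0.18 with a standard error of 0.08, and *Snd1*, a Tudor nuclease gene, one of 0.02 with a standard error of 0.07.

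**Figure D4:**
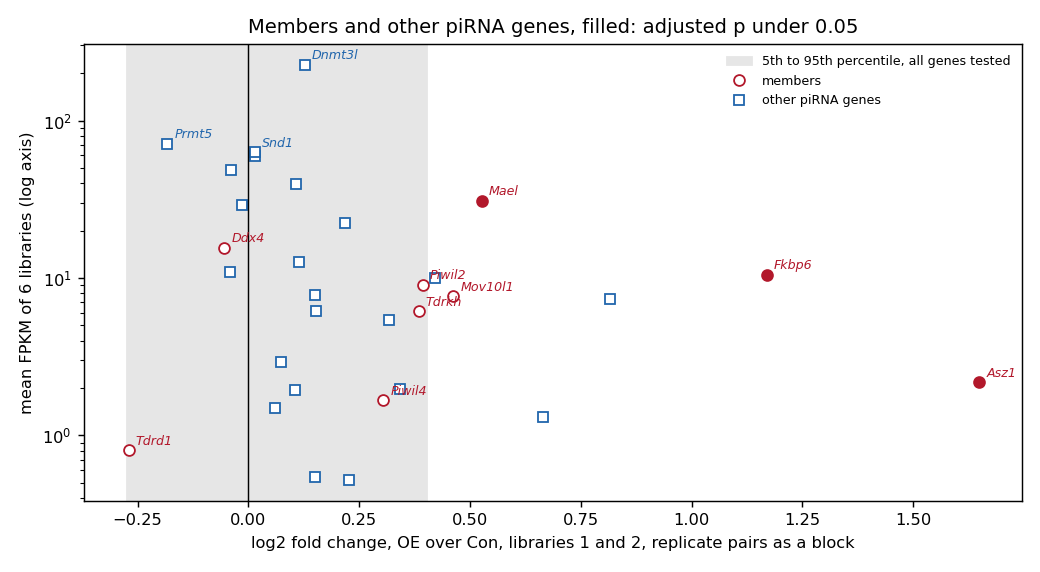
Log2 fold change of OE over Con in libraries 1 and 2 with the pairs as a block (x axis) against mean FPKM of 6 libraries (y axis, log scale) for the 9 members tested and 22 other piRNA genes. The grey band spans the 5th to 95th percentile of all genes tested, -0.27 to 0.40, and the filled points, which passed, are *Mael*, *Fkbp6* and *Asz1*.

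Markers of germ cells were read beside these values. The summed level of 10 markers of primordial germ cells and spermatogonia was 46.3 and 70.1 FPKM in OE-1 and OE-2, against 35.5 and 57.9 FPKM in Con-1 and Con-2. *Dazl*, taken out after its values were seen, made up most of the gap between OE and Con in pairs 1 and 2, and the sum of the other 9 was 32.45 and 40.59 FPKM in OE-1 and OE-2, against 27.81 and 39.93 FPKM in Con-1 and Con-2. Single markers went either way, OE being above Con for 7 of 10 in pair 1, 6 of 10 in pair 2 and 4 of 10 in the D7 pair. Of these 10, 6 had a mean of 0.5 FPKM or more, *Nanos2* was at 0 in 5 of 6 libraries and *Zbtb16*, a marker of spermatogonia, was at 0.22 FPKM or less. Their part in the members' values was not tested. In bulk RNA fewer cells that hold a transcript and less of it in each cell cannot be told apart.

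In a fit of all 6 libraries that allowed for the D7 label, 0 members passed without the block, where 0% of 13809 genes were higher, and 0 with it, where again 0% were higher. Before adjustment edgeR had 125 genes higher and 54 lower with p under 0.05 without the block, *Fkbp6* and *Asz1* among the higher ones. DESeq2 without the block passed 7 genes and 0 members. With the block *Asz1* had a log2 fold change of 1.53 with a standard error of 0.21 (adjusted p = 0.0912) and *Fkbp6* one of 0.91 with a standard error of 0.18 (adjusted p = 0.220). DESeq2 with the block passed both as higher, *Asz1* at an adjusted p of 0.0228 and *Fkbp6* at 0.0161, and no other member, beside 0.42% of genes that were higher.

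The OE effect was then compared between the D7 pair and libraries 1 and 2. *Mael* had an OE over Con ratio of 0.816 in the D7 pair, against 1.68 and 1.34 in pairs 1 and 2. With the block the D7 effect was lower than that of libraries 1 and 2 by a log2 difference of -0.84 with a standard error of 0.20 (adjusted p = 0.0251 from edgeR, 0.873 from DESeq2), 1 of 9 members beside 0.507% of genes that were lower. Without the block 0 members and 0% of genes were lower, with 47 genes higher and 22 lower at p under 0.05 before adjustment, and DESeq2 passed 2 genes, none of them a member. *Fkbp6* had a difference of -0.78 with a standard error of 0.28 (adjusted p = 0.210 with the block) and *Piwil2* one of -0.50 with a standard error of 0.20 (adjusted p = 0.301), and neither passed. The D7 arm is 1 library per group, so the spread behind these values comes from pairs 1 and 2 alone and the D7 pair is assumed to vary like them. Counts of the D7 libraries are also headed as averages, unlike the others. *Dppa3* itself was raised less in the D7 pair.

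The pair numbers separated the members more than OE did, as they did genes in general. In the blocked fit of OE against Con 0.763% of all genes were higher and 0.126% lower. Comparing replicate 2 with replicate 1, with genotype as a term, 6 of 9 members were higher in replicate 2, where 26% of 13494 genes were higher, and 0 were lower, where 25.4% of genes were (edgeR, adjusted p under 0.05). *Mael* at 52.50 FPKM in OE-2 and 39.27 in Con-2, against 22.25 in OE-1 and 13.25 in Con-1, rose by a log2 fold change of 1.3 with a standard error of 0.11 (adjusted p = 3.04e-07). *Piwil4* at 3.65 and 3.20 FPKM in OE-2 and Con-2, against 1.36 and 0.88 in OE-1 and Con-1, rose by 1.53 with a standard error of 0.20 (adjusted p = 1.37e-05). For both genes the libraries numbered 2 lay above both numbered 1 whatever the genotype. *Tdrkh* rose by 0.97 with a standard error of 0.13 (adjusted p = 1.6e-05). Each library number is 1 pair, and this fit counts its OE and Con libraries as separate replicates, though they were alike. The p-values thus hold no spread between pairs of 1 kind and may be too low.

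*Asz1*, *Mov10l1* and *Piwil2* were also higher in replicate 2, by log2 fold changes of 1.56, 0.61 and 0.34 with standard errors of 0.26, 0.12 and 0.09. With all 4 libraries but no genotype term *Asz1* (adjusted p = 0.0568) and *Piwil2* (adjusted p = 0.103) did not pass and *Mov10l1* did (adjusted p = 0.0243), 4 of 9 members beside 22.9% of genes that were higher. The fits without 1 library could not keep that term either. Without OE-2 the 3 genes had log2 fold changes of 0.53, 0.34 and 0.12 (adjusted p = 0.335, 0.0693 and 0.489) and without Con-1 of 0.92, 0.41 and 0.16 (adjusted p = 0.176, 0.0965 and 0.447), so 3 of 9 members passed in each case, beside 21.6% and 13.9% of genes that were higher. DESeq2 passed 5 of the 9 members, all of these 6 but *Piwil2* (adjusted p = 0.109), beside 11.7% of genes. *Fkbp6*, at 16.47 FPKM in OE-2 and 8.22 in Con-2, against 15.80 in OE-1 and 6.08 in Con-1, did not pass (log2 fold change 0.16, standard error 0.15, adjusted p = 0.392). It thus differed more between OE and Con than between the library numbers. By mean log2 FPKM ratio the same held narrowly for *Asz1* and *Piwil2*. *Piwil2* had OE over Con ratios of 1.35 and 1.37 in pairs 1 and 2, against 2 over 1 ratios of 1.36 in OE and 1.34 in Con. For *Asz1* they were 2.84 and 3.22, against 3.08 and 2.72. For the other 7 members the library number made the wider gap, and the share of all genes with such a gap was not computed. Like *Fkbp6*, *Ddx4* (0.24, standard error 0.11) and *Tdrd1* (-0.63, standard error 0.27) did not pass. With the size factors of DESeq2 in edgeR *Tdrd1* passed as lower (-0.645, adjusted p = 0.0498), beside 25.8% of genes that were lower. With no filter on low values *Tdrd9* also passed as higher (1.26, adjusted p = 0.0175), which made 7 of 10 members beside 16.7% of genes.

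Both libraries of replicate 2 lay above both of replicate 1 for 5 of 9 members, *Piwil4*, *Ddx4*, *Mov10l1*, *Tdrkh* and *Mael*, and for 46.4% of genes. The members' median log2 fold change was 0.61, beside 0.02 over all genes. Among the 22 other piRNA genes tested, 9 were higher and 3 lower in replicate 2, and without Con-1 this count of 12 fell to 6. The lower ones were *Prmt5* and *Wdr77*, which together form the arginine methyltransferase complex, and *Mov10*, the widely expressed relative of *Mov10l1*. *Prmt5* was at 58.31 and 59.04 FPKM in OE-2 and Con-2, against 86.78 and 103.46 FPKM in OE-1 and Con-1, and fell by 0.79 on the log2 scale (standard error 0.08, adjusted p = 9.16e-07). *Wdr77* and *Mov10* were named after their values were seen. The summed level of the spermatocyte and spermatid list was 34.7 and 34.4 FPKM in OE-2 and Con-2, against 17.2 and 12.3 FPKM in OE-1 and Con-1, most of it *Sycp3*, of the meiotic chromosome axis. Its part in the members' values was not tested.

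In the D7 pair *Piwil2* stood out. It was at 3.52 FPKM in OE-D7 and 3.72 in Con-D7, against 8.56 to 15.63 FPKM in the other 4 libraries, and fell by 1.68 on the log2 scale with a standard error of 0.21 (adjusted p = 0.0129 from edgeR), 1 of 9 members beside 3.06% of 13809 genes that were lower. The higher D7 library lay at 0.435 of the lowest of the others. The call rested on both D7 libraries, since without OE-D7 the log2 change was -1.43 (adjusted p = 0.309) and without Con-D7 it was -1.91 (adjusted p = 0.117). No member passed as higher, beside 6.77% of genes. The D7 fit counts OE-D7 and Con-D7 as separate replicates, though libraries of the same number were alike. D7 is thus 1 pair against pairs 1 and 2, and the p-values of this fit may be too low. The D7 label also cannot be told apart from anything else that set the third libraries apart.

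*Piwil4* was at 0.44 and 0.48 FPKM in OE-D7 and Con-D7, against 0.88 to 3.65 FPKM in the other 4 libraries, with a log2 fold change of -2.24 and a standard error of 0.68 that did not pass in edgeR (adjusted p = 0.096) and did in DESeq2 (adjusted p = 0.00492, beside 7.21% of genes that were lower). It rested on 26 and 29 reads in the D7 libraries, and without Con-1 it passed in edgeR at a log2 fold change of -2.53. Both PIWI genes were thus lowest in both D7 libraries. *Mael* had a log2 fold change of -0.07 with a standard error of 0.51 and *Fkbp6* one of -0.36 with a standard error of 0.25. *Mov10l1* (-0.65), *Tdrkh* (-0.84), *Asz1* (-0.79) and *Ddx4* (-0.33) were on the lower side and *Tdrd1* (0.57) on the higher side, with adjusted p of 0.176 to 0.447.

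Both D7 libraries lay below the other 4 for 3 of 9 members, *Piwil2*, *Piwil4* and *Ddx4*, and for 23.6% of genes, and above them for 1 of 9, *Tdrd1*, and for 23.6% of genes. The members' median log2 fold change was -0.65, beside -0.03 over all genes and -0.41 over the 22 other piRNA genes. Of those 22, 3 were lower and 0 higher. *Dnmt3l* fell by 1.197 on the log2 scale with a standard error of 0.14 (adjusted p = 0.0112). *Pnldc1*, which encodes the enzyme that trims piRNA ends, and *Morc1*, which takes part in transposon silencing, fell by 1.39 and 0.76 and were named after their values were seen. Without OE-D7 or without Con-D7, 0 of the 22 passed, and 0 and 28 of all genes did, against 1357 with both.

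The D7 libraries also differed in markers of other cells. The summed level of 7 trophectoderm markers was 1015 FPKM in OE-D7 and 583 FPKM in Con-D7, against 25.3 to 44.2 FPKM in the other 4 libraries, most of it the keratins *Krt8* and *Krt18*, which early differentiating cells share. Of 8 fibroblast and feeder markers *Thy1* was lower in D7, at 20.97 FPKM in OE-D7 and 22.95 FPKM in Con-D7, against 30.84 to 52.99 FPKM, and the other 7 summed to 157.66 FPKM in OE-D7 and 50.04 FPKM in Con-D7, against 2.57 to 3.04 FPKM, with *Col1a1* at 129.05 and 37.98 FPKM, against 0.80 to 1.81 FPKM. The 10 ESC markers summed to 3825 FPKM in OE-D7 and 3998 FPKM in Con-D7, against 4187 to 4889 FPKM, which mixes *Dppa5a*, higher in both D7 libraries than in the other 4, with 7 markers that were lower in both, *Pou5f1*, *Esrrb*, *Utf1* and *Klf4* among them. Without *Dppa5a*, left out, like *Thy1*, after its values were seen, the sum was 1557 FPKM in OE-D7 and 1915 FPKM in Con-D7, against 2949 to 3188 FPKM. The part of these cells or states in the lower *Piwil2* level was not tested.

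**Figure D5:**
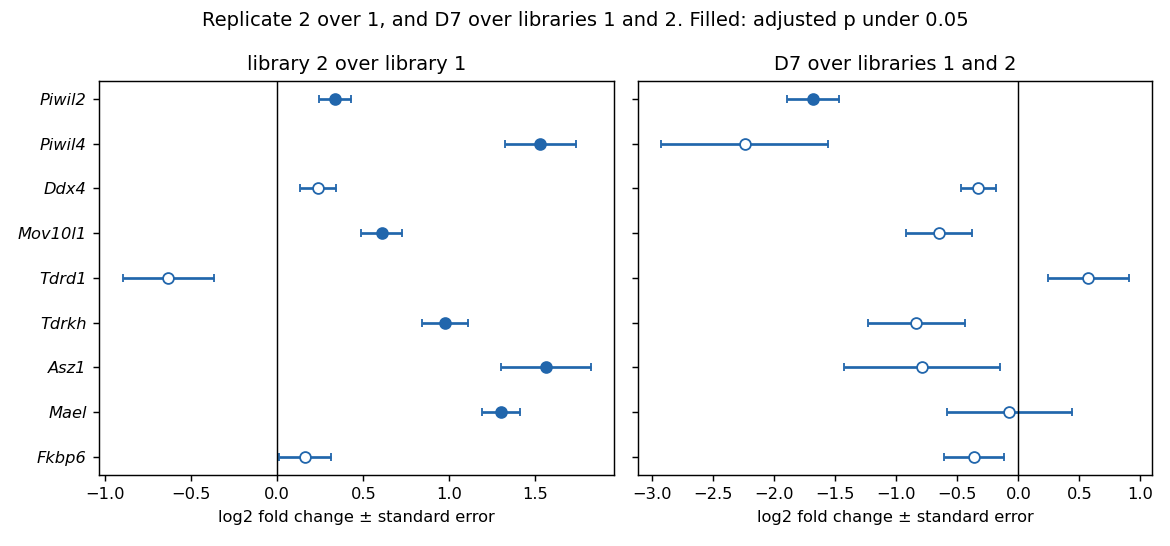
Log2 fold change with its standard error (x axis) of the 9 tested members for replicate 2 over replicate 1 (left panel, genotype as a term) and for D7 over libraries 1 and 2 (right panel). Filled points passed at an adjusted p under 0.05, 6 members on the left, all higher in replicate 2, and *Piwil2* on the right, lower in D7.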

How the data were processed

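RNA from 3 OE and 3 Con ESC libraries was sequenced on BGISEQ-500. By the methods the authors used Bowtie2 on mm10 and RSEM, and the deposited expected counts carry no normalization. HISAT and GRCm38.p6 stand in the submitters' processing notes instead. The authors also deposited FPKM values, scaled for transcript length and depth, with 2 decimals. Versions and strand settings are not given in the sources used here, so reads of overlapping or antisense genes cannot be told apart. Reads and mapping were not repeated.

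Estimated counts were rounded and tested with edgeR 4.0.16 (R 4.3.3, TMM, quasi-likelihood F test) over every gene whose FPKM averaged 0.5 or more in the libraries of a fit, 13494 genes for 4 libraries and 13809 for 6, with Benjamini-Hochberg adjustment over all of them. "Rose" and "fell" mean an adjusted p under 0.05. DESeq2 1.42.0, other size factors, no filter, and leaving out each library were alternatives, as was the library number as a block. The D7 counts, headed as averages, were fitted like the others. Single pairs have no replicates and no test. Promoter letters were read from RefSeq, GRCm38.p6.

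Whether numbers pair the libraries was checked on 12565 genes. Deviations from the group mean correlated at 0.881, 0.756 and 0.889 between OE and Con libraries of the same number and at -0.034 or below otherwise, though deviations from a mean of 3 are held to sum to 0. The pairing comes from these values, as no source states that libraries of 1 number were handled together. Over 4 libraries edgeR's shared estimate of the spread between replicates, as a coefficient of variation, was 0.0804 with the block and 0.283 without.

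The members and gene lists were chosen with earlier results of these data known. All members are named. Of the other piRNA genes the rule named those that passed in OE against Con (0 genes) and the 3 with the highest mean FPKM. Of marker lists it named the highest genes and those at 0. *Dnmt3c*, *Pgk2* and *Hsd3b1* of the lists were not analysed here.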

Additional observations from a re-analysis of the deposited data

Results flagged for a closer look

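*Mael* was picked out because its OE effect differed between the D7 pair and libraries 1 and 2 in a test of that difference, a log2 difference of -0.841 with the library pairs as a block (adjusted p = 0.0251 from edgeR). The OE over Con ratio of FPKM was 0.816 in the D7 pair, against 1.68 in pair 1 and 1.34 in pair 2. The same difference was -0.79 with a standard error of 1.11 without the block (adjusted p = 1), and DESeq2 with the block gave an adjusted p of 0.873. The D7 pair is 1 library per group, so the test holds no spread of that pair and assumes that it varies like pairs 1 and 2. No group had the 4 or more libraries needed to look for single outlying samples.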

How the results depend on the processing

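Counts of members called depended on the block, the tool and, for replicate 2 against 1, the model terms, filter and size factors, with 6 higher and 0 lower as reported, 4 higher with no genotype term, 7 higher with no filter and 6 higher and 1 lower with other size factors. Taking the library pairs as a replicate block raised the count of members called for OE against Con over libraries 1 and 2 to 3, against 0, and of all genes to 120, while DESeq2 called 2 genes without and 34 with the block, 1 of them a member. Over 6 libraries DESeq2 called 7 genes without the block and 69 with it, 2 of them members, where the edgeR block called 1 gene. For the difference in the OE effect the block called 1 member and 199 genes, DESeq2 2 genes, and DESeq2 with the block 22. For D7 DESeq2 called 2 members, 7 other piRNA genes and 2494 genes, and for replicate 2 against 1 it called 7 other piRNA genes and 3601 genes. Adding 0.5 FPKM to both libraries left 3 members 1.5-fold higher in pair 1. The block changed no other call of a member.

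Leaving out 1 library at a time gave 0 to 2 members and 1 to 90 genes for OE against Con over 4 libraries (the highest, with *Asz1* and *Mael* called, without Con-2), 0 to 2 members, 0 to 5 other piRNA genes and 0 to 2533 genes for D7, 3 to 6 members, 6 to 11 other piRNA genes and 3973 to 5788 genes for replicate 2 against 1, and 0 to 8 genes for the difference in the OE effect. In the blocked fit over 4 libraries this leaves no residual degrees of freedom, and for the difference in the OE effect the D7 libraries could not be left out. Where 1 arm held 1 library, it was assumed to vary like the others. Log2 values that were not called with all libraries and changed sign, *Mael* called without Con-2 included, ranged, over 4 libraries, between -0.583 and 1.367 (*Piwil4*), -0.19 and 0.094 (*Ddx4*), -0.649 and 0.182 (*Tdrd1*), -0.125 and 1.034 (*Tdrkh*) and -0.218 and 1.388 (*Mael*). Over 6 libraries they ranged between -0.406 and 0.768 (*Piwil4*), -0.125 and 0.024 (*Ddx4*), -0.328 and 0.159 (*Tdrd1*) and -0.254 and 0.616 (*Mael*). For D7 they ranged between -0.462 and 0.309 (*Mael*) and -0.74 and 0.02 (*Fkbp6*), and for replicate 2 against 1 between -0.466 and 0.939 (*Fkbp6*). For the difference in the OE effect they ranged between -1.487 and 0.429 (*Piwil4*), -0.129 and 0.131 (*Ddx4*, also 0.011 with other size factors and in DESeq2, and 0.009 in DESeq2 with the block), -0.073 and 0.781 (*Tdrd1*), -0.851 and 0.279 (*Tdrkh*) and -1.404 and 0.571 (*Asz1*). In the fits of OE against Con, leaving out a library numbered 1 or 2 left these numbers unequal between OE and Con. Those values mix OE with library number, and the part of each was not tested. *Tdrd9*, *Asz1* and *Piwil4* rest on few reads, which limits their precision.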

Other observations

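Among markers of germ cells that are no members of the pathway, *Dazl*, an RNA-binding protein of germ cells, was at 13.89, 29.51 and 27.07 FPKM in OE-1, OE-2 and OE-D7, against 7.65, 17.98 and 19.33 FPKM in Con-1, Con-2 and Con-D7. The OE library was higher in all 3 pairs. *Stra8*, which germ cells express as they enter meiosis, was at 33.81 FPKM in OE-D7 and 29.18 FPKM in Con-D7, against 2.84 and 12.24 FPKM in OE-1 and OE-2 and 1.96 and 10.76 FPKM in Con-1 and Con-2. It was thus highest in the D7 pair, where *Piwil2* and *Piwil4* were lowest. *Stra8* was higher in OE within each pair, at OE over Con ratios of 1.45, 1.14 and 1.16 in pairs 1, 2 and D7. *Sycp3* was at 11.72, 26.63 and 26.39 FPKM in OE-1, OE-2 and OE-D7, against 7.69, 29.37 and 28.77 FPKM in Con-1, Con-2 and Con-D7. It was lowest in OE-1 and Con-1, and OE was the higher of these. Con-2 and Con-D7 both lay above OE-2 and OE-D7, so its level did not keep these pairs apart. These values were not tested.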
